A study of Mus musculus with 6 samples.

Results

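The genes described here are 40 genes of apoptosis, necroptosis and the inflammasome, chosen by symbol from the BCL2 family, the caspases, the adaptors of death receptors, the inhibitors of apoptosis, the gasdermins and the inflammasome. The table of the study holds 37 of them among its 20624 genes, each with 1 row. *Bik*, *Nlrp3* and *Pycard* had no row in it, for a reason not given in the sources used here. RNA was sequenced after depletion of ribosomal RNA from 3 *Pkd1*-/- and 3 wild type samples of mDCT15, a mouse cell line modelling the distal convoluted tubule, grown untreated in the same medium. The *Pkd1*-/- cells were made by CRISPR/Cas9 editing, and the genotype field of their labels says PKD1 knockdown where their titles say *Pkd1*-/-. Whether the edited cells are a single clone is not given in the sources used here.

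Apoptosis is carried out by caspases, proteases that are activated either through mitochondria or through death receptors at the cell surface. On the mitochondrial route, proteins such as BAK and BOK permeabilise the outer membrane, anti-apoptotic BCL2 proteins hold them in check, and BH3-only proteins relieve that check. Necroptosis and pyroptosis are lytic forms of cell death, run by the kinase RIPK3 with its substrate MLKL and by inflammatory caspases with gasdermins. In polycystic kidney disease, apoptosis of tubular cells accompanies cyst growth.

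The only value used for each gene was the mean normalized count given by the authors, an average over all 6 samples of both genotypes. The values therefore describe how strongly each gene was expressed over these mDCT15 samples together. They give no difference between *Pkd1*-/- and wild type cells, no spread between replicates and no depth per sample, so no test was made and no order of levels was set against an error. The means of the whole table ran from 0.618 to 1052814 with a median of 104.5, and the 2 highest genes held 8.08% of their sum. *Pkd1*, the edited gene, had a mean of 3175 over both genotypes, which says nothing about the edit. Of the 8 genes listed as markers of the distal convoluted tubule, the kinase genes *Wnk1* (8468), *Stk39* (621) and *Wnk4* (413) had means of at least 10. So did the magnesium channel gene *Trpm6* (29.6), while *Klhl3* had a mean of 5.70. The defining ones, *Slc12a3*, *Pvalb* and *Calb1*, had no value in the table of the study. Of 5 general epithelial genes, *Cdh16* had a mean of 4680, *Epcam* one of 115 and *Krt8* one of 0.980, while *Cdh1* and *Krt18* had no value. Markers of other nephron segments went both ways, since of the proximal tubule genes *Lrp2* had a mean of 8826 and *Slc34a1* one of 2.04. *Umod*, *Slc12a1* and *Aqp2* had no value. Of the 6 leukocyte and macrophage genes 3 had a value, with *Cd68* at 41.9, *Ptprc* at 5.36 and *Lyz2* at 2.57. The fibroblast genes *Col1a1*, *Pdgfrb* and *Pdgfra* had means of 201, 4.48 and 4.12, and the endothelial gene *Pecam1* one of 4.68. The part of other cell types in the levels below was not tested.

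The death genes as a group were expressed at about the level of other protein-coding genes. Of the 37 genes, 34 (91.9%) had a mean normalized count of at least 10, the level taken here as the lowest at which a gene is ranked, beside 66.5% of all genes in the table and 85.3% of its 13862 protein-coding genes. The genes with lower means were *Hrk*, *Casp1* and *Ripk3*. The means reached 1000 for 10 genes, lay between 100 and 1000 for 21 and between 10 and 100 for 3. Of the 37 genes, 17 lay above the median of the protein-coding genes (474) and 29 above the median of all genes. Their median was 431, at percentile 64.7 of the table, and among the genes that reached a mean of 10 the median percentile of the 34 was 49.2.

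**Figure D1:**
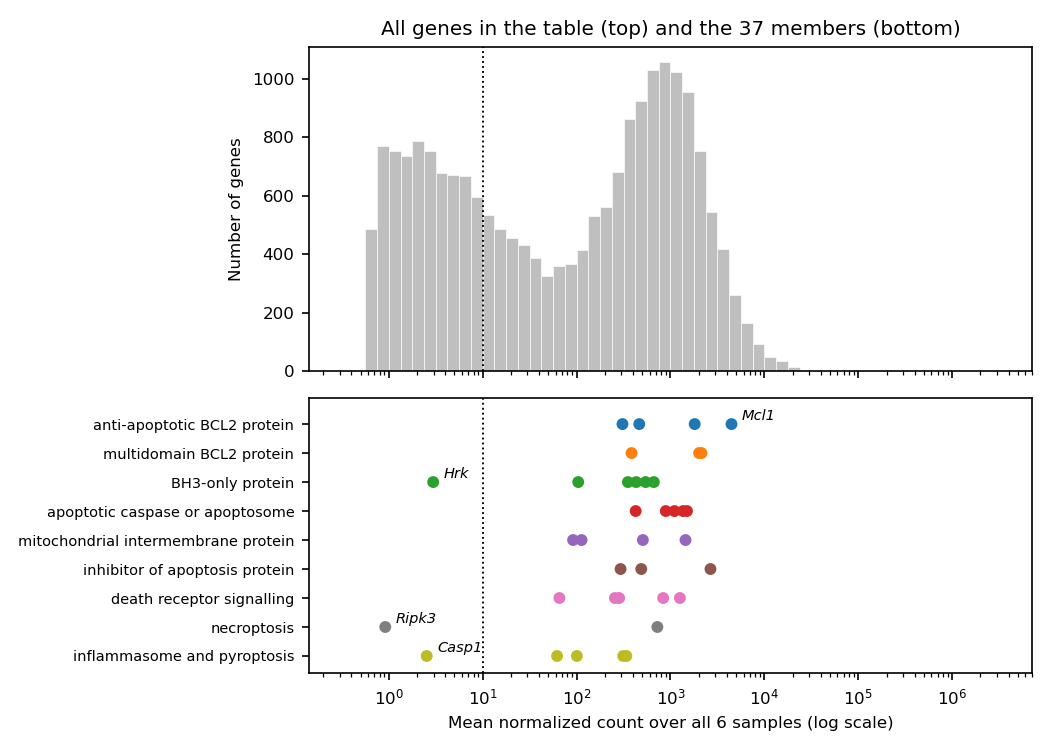
Number of genes by mean normalized count over all 6 samples (log axis) for the whole table (top), and the mean of each of the 37 death genes by role (bottom, 1 point a gene). The dotted line marks a mean of 10: 34 genes lie to its right, with *Mcl1* the highest at 4465, and *Hrk*, *Casp1* and *Ripk3* lie to its left.

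Levels of different genes were compared per kilobase, by dividing the mean normalized count by the length of all annotated exons of the gene. Since the isoforms expressed in these cells are unknown, the ratio between a pair of genes is given with its range when the longest or the canonical transcript supplied the length instead. The lengths come from a later annotation release than the one used for counting, so any exons added since add length but no reads. For the protein-coding genes that reached a mean of 10, the median was 97.3 normalized counts per kilobase.

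Among the anti-apoptotic BCL2 genes, *Mcl1* was by far the most abundant and *Bcl2* the least. *Mcl1* (ENSMUSG00000038612, plus strand of chromosome 3 from 95566026 to 95570487 in GRCm39), which encodes a short-lived guardian of the mitochondrial membrane, had a mean of 4465, at percentile 97.2 of the table. Its level of 1279 per kilobase ranked 1 among the 37 genes under each of the 3 lengths. With the length of all exons it made up 73.0% of the sum over this group. With the other lengths this share was lower, since the level of *Mcl1* stayed at 1279 while those of the other genes of the group rose. *Bcl2l1*, the gene of BCL-XL, had a mean of 1811 and 353 per kilobase. *Bcl2l2*, the gene of BCL-W, had a mean of 465 and 86.1 per kilobase. *Bcl2* itself (minus strand of chromosome 1 from 106465908 to 106642060), the founding member of the family, had a mean of 308 and 33.4 per kilobase. Per kilobase, *Mcl1* was thus 38.2 times *Bcl2* (30.1 to 38.2 over the 3 lengths) and 3.63 times *Bcl2l1* (2.31 to 3.63), and *Bcl2l1* was 10.5 times *Bcl2* (10.5 to 13.0).

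Of the multidomain members, *Bak1* (minus strand of chromosome 17 from 27238784 to 27247983), which encodes the pore-forming effector BAK, had a mean of 2015 and 837 per kilobase, the second highest level per kilobase of the 37 genes. *Bok*, the gene of a related effector, had a mean of 385 and 157 per kilobase, so *Bak1* was 5.33 times *Bok* (3.38 to 5.33). *Bcl2l13*, whose product sits in the outer mitochondrial membrane and acts as a receptor in mitophagy, had a mean of 2138 and 183 per kilobase. *Bax*, the partner effector of BAK and not among the 40 genes, had a mean of 319, which is not corrected for length.

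Per kilobase, the BH3-only genes had a lower median than the anti-apoptotic and multidomain groups, at 50.8 over the 6 in the table. With canonical transcripts it was 146, above the 124 of death receptor signalling, so its place among the other roles depended on the length. *Pmaip1*, which encodes NOXA, the BH3-only protein that binds MCL1, had the highest value of this group, with a mean of 544 and 199 per kilobase. *Bcl2l11*, the gene of BIM, had the highest count of the group with a mean of 665 and 65.7 per kilobase. *Bad*, whose product is inactivated by phosphorylation downstream of growth factors, had a mean of 431 and 96.2 per kilobase, while *Bid*, whose product is cleaved by caspase-8, had a mean of 352 and 36.0 per kilobase. The order of these genes depended on the length used: *Pmaip1* was 2.07 times *Bad* on all exons and 0.548 times *Bad* on canonical transcripts. *Bmf*, which encodes a sensor tied to the cytoskeleton, was lower, with a mean of 104 and 19.8 per kilobase, and *Pmaip1* was at least 8.88 times *Bmf* under each of the 3 lengths. *Hrk* (harakiri, best known from neurons) had a mean of 2.97, at percentile 19.9, too low to rank.

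The apoptotic caspases and their activating platform all reached means of at least 426. *Casp8* (plus strand of chromosome 1 from 58834375 to 58886665), which encodes the initiator caspase of the death receptor route, had a mean of 1361 and 442 per kilobase, the highest level of this group. *Casp9*, the initiator of the mitochondrial route, had a mean of 892 and 108 per kilobase, and *Apaf1*, whose product assembles with cytochrome c into the apoptosome that activates caspase-9, had a mean of 1499 and 141 per kilobase. *Casp8* was 4.07 times *Casp9* per kilobase (2.17 to 4.07), whereas *Apaf1* and *Casp9* were close, at a ratio of 1.30 that ran from 0.987 to 1.54. *Casp2*, the gene of a caspase linked to DNA damage and ploidy, had a mean of 1103 and 152 per kilobase. *Casp6*, the gene of an executioner caspase, had the lowest mean of the group at 426, with 76.2 per kilobase.

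Among the genes of proteins held between the mitochondrial membranes, *Aifm1*, which encodes apoptosis-inducing factor, an oxidoreductase that moves to the nucleus in dying cells, was highest, with a mean of 1445 and 228 per kilobase. *Htra2*, the gene of a serine protease, had a mean of 508 and 132 per kilobase. *Endog*, the gene of endonuclease G, had a mean of 91.8 and 50.9 per kilobase. *Diablo*, which encodes SMAC, the antagonist of the inhibitors of apoptosis, was the lowest per kilobase, with a mean of 113 and 18.0 per kilobase, and *Aifm1* was 12.6 times *Diablo* (10.5 to 14.0). The value of *Diablo* is uncertain, since 56.0% of its exonic bases are shared on the same strand with the gene model *Gm49027* (mean 2.36), and reads that fall on both genes are left out by the default counting.

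The inhibitors of apoptosis were led by *Xiap*, whose product binds and blocks caspases directly. It had a mean of 2667, the second highest count of the 37 genes, and 270 per kilobase. *Birc2* and *Birc3*, the genes of the ubiquitin ligases cIAP1 and cIAP2, had means of 488 and 294 and levels of 74.9 and 33.9 per kilobase. They lie next to each other on the minus strand of chromosome 9, between 7818227 and 7873229, with 8669 bases between them. *Xiap* was 3.61 times *Birc2* (2.72 to 4.09), and *Birc2* was 2.21 times its neighbour *Birc3* (1.92 to 2.88).

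In the death receptor group, *Fas*, the only receptor gene in it, had the lowest level per kilobase. *Fas* had a mean of 65.7 and 28.3 per kilobase. *Fadd*, the gene of the adaptor that links FAS to caspase-8, had a mean of 256 and 65.4 per kilobase, and *Tradd*, the adaptor of the TNF receptor, a mean of 284 and 123 per kilobase, which was 4.35 times *Fas* (3.70 to 4.35). *Ripk1*, which encodes the kinase at the branch between survival, apoptosis and necroptosis, had a mean of 835 and 76.0 per kilobase. *Cflar*, the gene of cFLIP, the caspase-8 homologue that lacks protease activity, had a mean of 1260 and 87.1 per kilobase. *Cflar* and *Casp8* lie on the plus strand of chromosome 1 with 36327 bases between them, and *Casp8* was 5.07 times *Cflar* per kilobase (2.77 to 5.07). Of the ligands, *Tnfsf10* had a mean of 15.8 and *Fasl* had no value. The receptor genes *Tnfrsf1a* and *Tnfrsf10b*, not among the 40 genes, had means of 1260 and 1000.1. These means, not corrected for length, were above those of *Fas*, *Fadd* and *Tradd*.

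The necroptosis pair was unequal. *Mlkl*, which encodes the protein that ruptures the plasma membrane, had a mean of 725 and 125 per kilobase. *Ripk3* (minus strand of chromosome 14 from 56022452 to 56026324), the kinase gene upstream of it, had a mean of 0.917, at percentile 4.98 of the table and the lowest of the 37 genes. A mean this low was not set into a ratio, since the reads behind it are unknown.

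The inflammasome and pyroptosis genes had the lowest median of the 9 roles, 11.8 per kilobase, and also the lowest under the other lengths. *Gsdmd*, which encodes the pore protein cut by the inflammatory caspases, was the highest, with a mean of 339 and 113 per kilobase. *Gsdme*, the gene of another gasdermin, had a mean of 101 and 7.70 per kilobase, and the ratio of *Gsdmd* to *Gsdme* ran from 3.82 to 14.7 with the length used. The inflammatory caspase genes *Casp1*, *Casp4* and *Casp12* follow each other on the plus strand of chromosome 9 from 5298508 to 5373034, with 1537 bases between the first pair and 8631 between the second. Their levels differed widely within this stretch. *Casp1*, the gene of the caspase that matures interleukin-1 beta, had a mean of 2.54, at percentile 18.0. *Casp4*, the gene of the mouse sensor of cytosolic lipopolysaccharide also known as caspase-11, had a mean of 62.0 and 11.8 per kilobase. *Casp12*, the gene of a caspase located at the endoplasmic reticulum, had a mean of 314 and 74.4 per kilobase, which was 6.30 times *Casp4* (2.74 to 6.30).

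**Figure D2:**
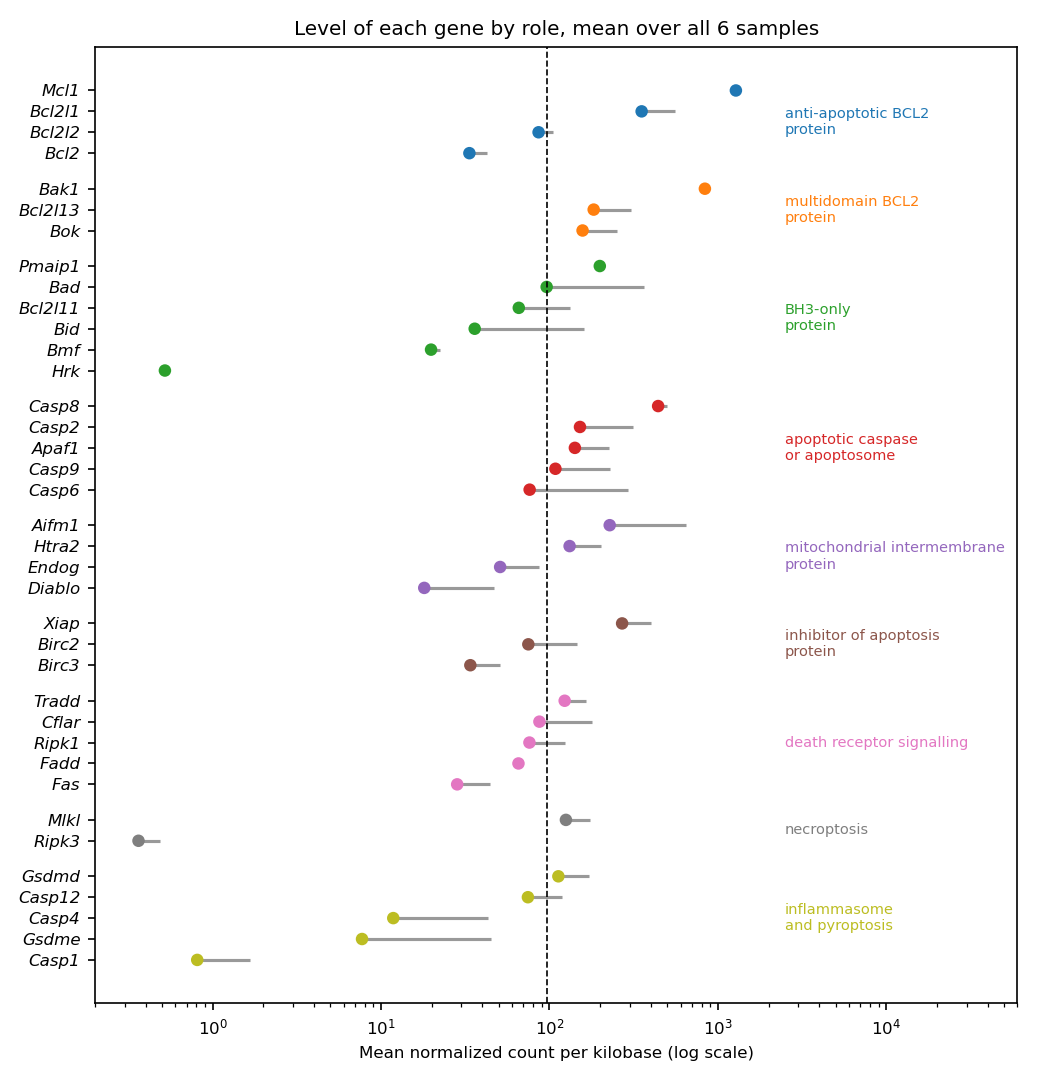
Mean normalized count per kilobase over all 6 samples (log axis) of the 37 genes, grouped by role. Points use the length of all annotated exons, grey lines span the values with the longest and the canonical transcript, and the dashed line is the median of protein-coding genes with a mean of at least 10 (97.3); *Mcl1* and *Bak1* stand highest at 1279 and 837, and *Casp1*, *Hrk* and *Ripk3* are at 0.809, 0.520 and 0.362.

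The sequence before the start site was examined in all 37 genes, because mammalian promoters fall into those rich in CpG dinucleotides, common in broadly expressed genes, and those poor in them. The 250 bases before the start of the canonical transcript in GRCm39 were classed as CpG-rich where GC content exceeded 50% and the ratio of observed to expected CpG exceeded 0.6. By this rule 22 of the 37 promoters (59.5%) were CpG-rich, beside 47.9% of 13855 protein-coding genes in the table, and with 50 bases after the start added the shares were 56.8% and 55.8%, so the gap to the background depended on the window. Among the genes, CpG-rich promoters were spread unevenly over the roles. None of the 7 necroptosis, inflammasome and pyroptosis genes (0 of 7, with ratios from 0.0765 for *Casp1* to 0.480 for *Ripk3*) had one, while 22 of the 30 genes of the other roles did. This split was noticed in the data and was not tested. High levels were also found beside promoters poor in CpG: *Casp8* and *Bak1*, at ranks 3 and 2 per kilobase, had ratios of 0.0746 and 0.152, and *Hrk*, with a mean of 2.97, had a CpG-rich promoter with a ratio of 0.815. The median mean count was 526 for the genes with a CpG-rich promoter and 314 for those without, beside 727 and 250 for all protein-coding genes.

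The promoters of the highest and the lowest gene and of the *Casp1* cluster are shown, the first pair because their levels are the extremes of the 37 genes and the cluster because its neighbouring genes differ in level, with each CpG in capitals. They hold 26 CpG for *Mcl1* (chr3:95565776-95566025, plus strand), 9 for *Ripk3* (chr14:56026325-56026574, minus strand), 1 for *Casp1* (chr9:5298258-5298507, plus strand), 3 for *Casp4* (chr9:5308593-5308842, plus strand) and 2 for *Casp12* (chr9:5345165-5345414, plus strand). Each is written 5′ to 3′ on the strand of its gene in GRCm39.
Mcl1: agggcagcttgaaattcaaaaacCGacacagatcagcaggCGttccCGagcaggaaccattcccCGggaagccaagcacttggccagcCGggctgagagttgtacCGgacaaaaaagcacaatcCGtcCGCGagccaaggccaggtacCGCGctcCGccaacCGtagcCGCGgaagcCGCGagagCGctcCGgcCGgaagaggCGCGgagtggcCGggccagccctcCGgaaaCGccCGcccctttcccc
Ripk3: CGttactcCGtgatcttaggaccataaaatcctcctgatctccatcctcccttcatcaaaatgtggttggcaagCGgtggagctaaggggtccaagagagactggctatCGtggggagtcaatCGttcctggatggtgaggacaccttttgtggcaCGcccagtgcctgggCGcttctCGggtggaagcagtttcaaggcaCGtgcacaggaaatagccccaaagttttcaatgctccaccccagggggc
Casp1: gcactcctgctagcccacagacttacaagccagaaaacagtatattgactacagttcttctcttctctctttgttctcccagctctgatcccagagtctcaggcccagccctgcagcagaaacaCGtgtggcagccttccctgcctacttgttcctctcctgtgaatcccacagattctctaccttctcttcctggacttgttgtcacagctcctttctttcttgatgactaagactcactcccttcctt
Casp4: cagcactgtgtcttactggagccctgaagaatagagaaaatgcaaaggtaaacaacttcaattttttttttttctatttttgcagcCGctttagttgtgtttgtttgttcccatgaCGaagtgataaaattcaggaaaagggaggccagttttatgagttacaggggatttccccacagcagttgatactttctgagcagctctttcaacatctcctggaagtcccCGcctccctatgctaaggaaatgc
Casp12: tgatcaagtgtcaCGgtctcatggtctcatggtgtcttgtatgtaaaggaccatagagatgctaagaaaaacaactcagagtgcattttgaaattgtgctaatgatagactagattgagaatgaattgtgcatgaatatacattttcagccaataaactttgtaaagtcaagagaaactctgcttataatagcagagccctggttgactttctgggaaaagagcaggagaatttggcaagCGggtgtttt
The promoters of the 3 neighbouring caspase genes were thus each poor in CpG, while the means of the genes ran from 2.54 to 314.

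**Figure D3:**
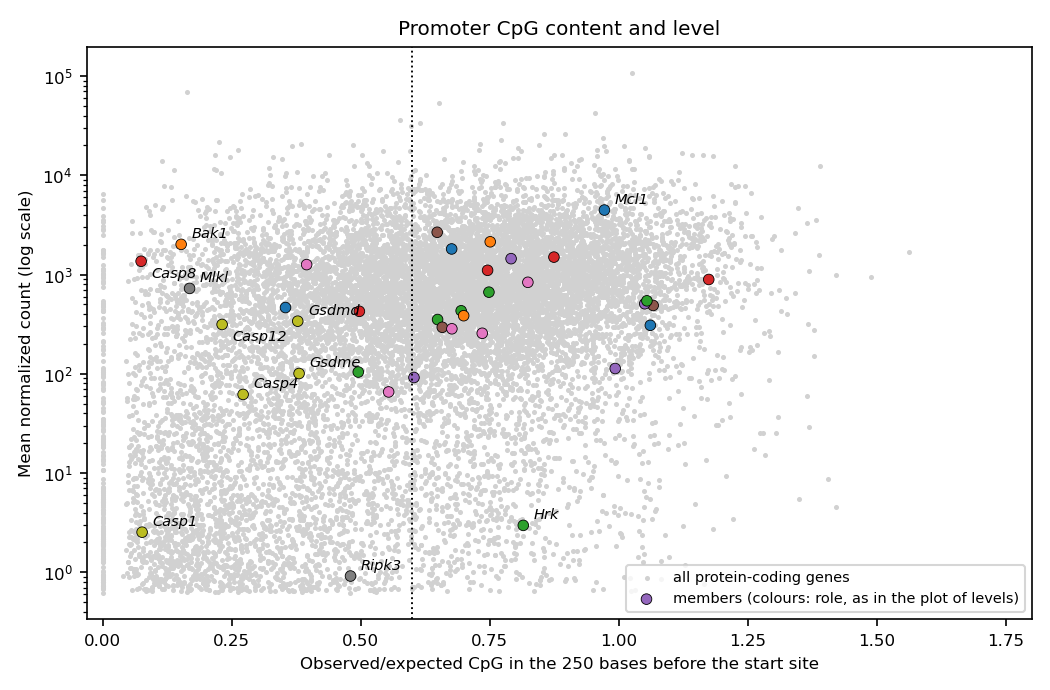
Ratio of observed to expected CpG in the 250 bases before the start site against the mean normalized count over all 6 samples (log axis), for all protein-coding genes (grey) and the 37 death genes (coloured by role). The dotted line is at 0.6: *Ripk3*, *Mlkl*, *Casp1*, *Casp4*, *Casp12*, *Gsdmd* and *Gsdme* lie to its left, and *Mcl1* and *Hrk* to its right.

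Several genes overlap others, which can bear on their counts. Exons of 19 of the 37 genes overlap those of a gene on the opposite strand and exons of 4 overlap a gene on the same strand, while 17 overlap none. The share over all genes was not computed. These overlaps are those of the later annotation release, and many of the overlapping genes had no value in the table of the study. Of the 4 genes with an overlap on the same strand, only *Diablo* overlaps a gene with a value. *Bcl2l13* and *Bid* face each other on chromosome 6 (120813144 to 120894171), where the genes overlap over 28798 bases and share 3059 exonic bases, 26.2% of those of *Bcl2l13* and 31.2% of those of *Bid*. *Htra2* shares 36.3% of its exonic bases with *Aup1* (mean 1235), *Endog* 34.8% with *Spout1* (465) and *Gsdme* 24.0% with *Pals2* (829). Reads of such pairs can be told apart only where the counting used strand. The default setting of the counting tool, which the paper names, does so. The paper also names the library kit but does not state which strand its reads follow. Whether the setting matched the libraries was not tested, and a mismatch would bear on the counts of all genes, not only of these pairs.

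Of 42 other genes of these pathways, 32 had a value and 25 of them a mean of at least 10, with a median of 493. These means are not corrected for length. The highest was that of *Birc6*, a giant inhibitor of apoptosis, at 7701. The caspase substrate *Parp1* followed with a mean of 5304 and the BAK partner *Vdac2* with one of 3923. *Nek7*, the kinase that binds NLRP3, had a mean of 2996. Sensors and cytokines of the inflammasome were low or had no value. The means were 2.63 for *Aim2*, 2.22 for *Nlrp6*, 23.9 for *Naip2*, 1.29 for *Naip5*, 4.56 for *Naip6* and 19.6 for *Il18*. *Naip1*, *Nlrc4*, *Nlrp1a*, *Nlrp1b* and *Il1b* had no value.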

How the data were processed

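RNA of 3 *Pkd1*-/- and 3 wild type mDCT15 samples, grouped by their titles, was sequenced in pairs of short reads. Per the labels and the paper, the reads were trimmed with Trim Galore 0.4.5, mapped to GRCm39 by STAR 2.7.5a, using gene models of Ensembl release 105, counted per gene with HTSeq 0.11.0 at default parameters, and compared with DESeq2 1.22.0 in R 3.5.3, with a stated minimum of 5 counts per sample per gene. Means in the deposited table run down to 0.618, below that minimum, so how the minimum was applied is unknown. This table holds, per gene, a mean normalized count, a signal that the authors averaged over all 6 samples. It also holds 5 columns of their comparison (fold change, its standard error, test statistic, p-value and adjusted p-value), which were not used, so no comparison of genotypes was made. The depth per sample is unknown. No gene shares its mean with another (0 of 20624), and recovery of the reads behind low means was not attempted.

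Identifiers were matched to GENCODE M39 on GRCm39 (20122, 97.6%), a later release than the one used for counting, which supplied positions, exon lengths and start sites. Percentiles, medians, levels per kilobase, promoter CpG and exon overlaps (bedtools 2.31.1) were computed with Python 3.11.15, numpy 2.4.6 and pandas 2.3.3. Only the percentile and CpG functions were checked on simulated data. All 37 genes are named, in full those highest and lowest per kilobase in each role, those with a mean under 10 and neighbours on a chromosome; the 9 roles and the lists were written by hand. The members and lists were chosen with earlier results of these data known. The alternatives were minimum means of 5 and 100, other lengths, other backgrounds and, chosen after seeing the data, canonical transcripts and a longer promoter.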

Additional observations from a re-analysis of the deposited data

How the results depend on the processing

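No paired analysis was possible because the only value used is a mean over all samples, which carries no replicate numbers; for the same reason no sample could be left out. The planned recovery of reads per library was not run. The count of 34 genes with a mean of at least 10 was 34 at a minimum of 5 and 31 at 100. The median percentile of the genes stayed between 64.7 and 67.5 with and without each length and with the rows of a symbol summed, and was 49.2 when only genes that reached a mean of 10 were ranked.

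The absolute levels per kilobase depended on the length, a result of its construction: values rose by over 1.5 times for 11 of 37 genes with the longest transcript and for 24 with the canonical transcript, which was chosen after seeing the data. With the longest transcript, the median per kilobase became 298 for the multidomain BCL2 genes, 104 for BH3-only, 226 for the apoptotic caspases, 117 for death receptor signalling and 21.8 for the inflammasome. With the canonical transcript it became 330 for the anti-apoptotic BCL2 genes, 306 for multidomain, 146 for BH3-only, 292 for the apoptotic caspases, 144 for the mitochondrial proteins, 147 for the inhibitors of apoptosis, 124 for death receptor signalling and 45.0 for the inflammasome. Without the genes under a mean of 10 it was 125 for necroptosis, from *Mlkl* alone, and 43.1 for the inflammasome. With canonical transcripts the ratio of *Pmaip1* to *Bad* turned to 0.548 and that of *Apaf1* to *Casp9* to 0.987, and without length correction that of *Bak1* to *Bcl2l13* turned to 0.942. CpG-rich promoters numbered 22, and 21 in the longer window.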
